A study of Mus musculus with 6 samples.

Results

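Of the 1066 Sox6 peaks common to both experiments, 270 had a centre outside every gene with a RefSeq transcript and more than 20 kb from both ends of the nearest one, in the mouse genome build mm9. In 25 of these, more than 200 reads of the inputs together fell within 225 bp of the centre, and these repeat-like windows are described apart. The remaining 245 intergenic peaks are the subject here, and the other common peaks without such a window, 581 inside a gene and 208 within 20 kb of one, serve for comparison. No read of RNA polymerase II (Pol II) was used to choose them, but the authors called the peaks on the Sox6 reads against input, and the limit uses input reads.

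The data are chromatin immunoprecipitation followed by sequencing (ChIP-seq) for Sox6, for Pol II and for input DNA, with 2 libraries in each of the 3 groups. All 6 libraries come from wild type C57BL/6 cells: myoblasts of E18.5 limb muscle, at 17 passages, that were turned into myotubes by 48 h in DMEM with 2% horse serum. Chromatin was fixed with disuccinimidyl glutarate and formaldehyde, and precipitated with an Abcam antibody against Sox6 (ab30455) or with the Pol II antibody 4H8 (ab5408). There was no Sox6 mutant and no second treatment or stage, so every comparison is between a precipitation and input or between sets of peaks. The study's methods describe the 2 experiments with each antibody as independent, without saying whether cultures or animals were separate. The p-values of the fits rest on the spread between these libraries, which may be technical. That spread was pulled towards a trend with abundance over all windows or genes fitted. The standard error of a single peak thus largely follows its read number. A small p-value there does not show that its own 2 libraries were alike.

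Sox6 is a transcription factor of the SoxD family that binds DNA through its HMG box and has no activation or repression domain of its own, so its effect depends on its partners. In fetal muscle it is known as a repressor of slow fibre genes. Sites far from genes are often enhancers, which can act on promoters at long range, and muscle enhancers typically carry E-boxes, bound by the MyoD family, together with sites for Mef2, Runx and Tead proteins, the last bound at the MCAT element. Pol II is found mainly at promoters and along transcribed genes but also gathers at active enhancers.

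The sequences of 7 intergenic peaks, each the interval that the authors deposited, are given as examples and do not stand for all. They are the 4 with the largest Sox6 ratios among peaks with at least 10 input reads, the Igsf3 peak, which carried much Pol II, the Tbx15 peak that led those near muscle regulators, and the Igsf11 peak, which lay farthest from a RefSeq gene. In the order printed they are chr6:64751042-64751161, chr1:130753622-130753761, chr8:82370962-82371121, chr11:89658722-89658881, chr3:101314742-101314901, chr3:99317002-99317141 and chr16:39746722-39746881. All are intergenic by the annotation used and are given 5' to 3' on the plus strand of mm9. Capitals mark matches, on either strand, to the Sox consensus (ACAAAG or ACAATG), the E-box (CAGCTG or CAGGTG), the Runx consensus (CCACA) or the Tead/MCAT element (GGAATG), which were the 4 motifs considered in the study.
Atoh1 peak: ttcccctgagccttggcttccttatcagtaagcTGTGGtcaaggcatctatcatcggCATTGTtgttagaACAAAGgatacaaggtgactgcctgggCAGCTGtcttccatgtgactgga
Cxcr4 peak: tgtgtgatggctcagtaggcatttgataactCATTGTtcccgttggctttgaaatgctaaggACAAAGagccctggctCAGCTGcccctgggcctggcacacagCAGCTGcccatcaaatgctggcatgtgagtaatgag
Anapc10 peak: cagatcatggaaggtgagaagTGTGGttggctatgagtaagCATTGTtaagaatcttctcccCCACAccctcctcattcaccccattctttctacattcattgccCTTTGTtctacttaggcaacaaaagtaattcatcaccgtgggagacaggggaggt
Ankfn1 peak: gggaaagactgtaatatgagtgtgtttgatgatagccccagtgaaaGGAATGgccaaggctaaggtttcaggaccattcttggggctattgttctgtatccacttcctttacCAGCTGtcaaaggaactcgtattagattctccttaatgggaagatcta
Igsf3 peak: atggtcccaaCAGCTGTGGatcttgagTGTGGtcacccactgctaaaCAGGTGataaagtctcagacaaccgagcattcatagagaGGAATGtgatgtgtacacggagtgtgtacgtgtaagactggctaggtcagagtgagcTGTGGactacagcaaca
Tbx15 peak: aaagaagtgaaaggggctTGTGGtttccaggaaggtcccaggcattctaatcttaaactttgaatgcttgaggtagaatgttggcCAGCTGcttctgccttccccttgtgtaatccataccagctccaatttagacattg
Igsf11 peak: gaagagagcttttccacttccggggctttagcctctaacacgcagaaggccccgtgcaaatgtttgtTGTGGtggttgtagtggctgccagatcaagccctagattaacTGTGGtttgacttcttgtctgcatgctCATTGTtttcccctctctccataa

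The Cxcr4 peak held a pair of Sox matches at bases 32 to 37 and 63 to 68, counted from 1 at the first base printed, followed by CAGCTG E-boxes at bases 79 to 84 and 105 to 110. The Atoh1 peak had a similar order, with Sox matches at bases 58 to 63 and 71 to 76 and an E-box at bases 98 to 103. The Igsf3 peak had no Sox match but 2 E-boxes and 3 Runx matches, and an E-box and a Runx match overlapped there in the letters CAGCTGTGG. Of all 245 intergenic peaks, 18 held none of the 4 motifs and 62 held 1, fewer than any peak printed. The peak 78.1 kb upstream of Runx1, not printed, held 1 Runx match and no other.

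The libraries differed in depth. The Sox6 libraries held 2985437 and 1468604 reads and those of Pol II 1538757 and 2762155, beside 21973495 and 24249850 for input, so a single window held few reads of either precipitation. Reads that repeat the chromosome, strand and 5' end of another made up 2.96% to 7.88% of a library. The usual read length was 36 bp in input replicate 1 and 39 bp in the other libraries. Pol II over gene bodies was checked against markers of the labelled cells. The skeletal muscle genes Acta1, Myh3 and Mylpf had log2 ratios to input of 6.62, 6.61 and 6.08, Myog, the myogenic factor of differentiating cells, 6.35, and Ckm, the creatine kinase of mature muscle, a lower 2.57. Markers of liver (Alb, -1.86), neurons (Rbfox3, -0.999), endothelium (Pecam1, -0.76) and leukocytes (Ptprc, -1.81) lay below input, and the fibroblast gene Col1a1 did not differ detectably from it (0.13, adjusted p = 0.808).

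The intergenic peaks lay a median of 92.2 kb from the nearest RefSeq gene, with quartiles of 38.0 and 227 kb and a range of 20.4 to 720 kb. By distance, 85 lay at 20 to 50 kb, 43 at 50 to 100 kb, 64 at 100 to 250 kb and 53 farther away. The gene-free interval around a peak had a median length of 435 kb, was over 500 kb for 115 peaks and reached 3412 kb. With respect to the nearest gene, 140 peaks were upstream of its start and 105 downstream of its end. Sequence more than 20 kb from a RefSeq gene makes up 45.2% of the assembled genome and held 23.7% of the common peaks without repeat-like windows, which is 2.12 peaks per 10 Mb there and 5.62 per 10 Mb of the rest. Among the autosomes, the number per 10 Mb of such sequence ran from 0.969 on chromosome 7, with 5 peaks, to 3.94 on chromosome 10, with 23. The X chromosome, with 3 peaks, had 0.328. These densities were not corrected for the read depth of each chromosome.

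A peak called intergenic by RefSeq genes could still lie near another annotated transcript. When genes of any kind in the GENCODE annotation were counted, 31 of the 245 lay within 20 kb of one and 4 lay inside one, namely Gm10384, A430010J10Rik, 4831426I19Rik and Gm12514. The peak inside Gm10384 was the one with Ywhaz as its nearest RefSeq gene. The median distance to a gene of any kind was 45.6 kb.

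At the centres of the intergenic peaks Sox6 was about as abundant as at peaks in or near genes. Each read was placed by its 5' end, and reads in the central 450 bp were scaled to 1000000 mapped reads (RPM). The intergenic peaks had medians of 5.02 and 6.81 RPM in the Sox6 libraries and of 0.501 and 0.495 RPM in the inputs. These medians stand for 15 and 10 Sox6 reads and 11 and 12 input reads. On the log2 scale, Sox6 exceeded input by a median of 3.62 (quartiles 3.13 and 4.16), beside 3.50 for peaks inside a gene and 3.59 for those within 20 kb. Every one of the 245 peaks had a higher RPM in each Sox6 library than in the input of the same number, and in 244 both Sox6 libraries exceeded both inputs. Since the peaks were called on these reads, the ratios describe the peaks and are given without a test.

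The Sox6 signal was narrow. In bins of 50 bp, the mean within 100 bp of the centre was 0.751 and 1.03 RPM per peak in the 2 Sox6 libraries, which was 15.47 and 20.03 times the mean beyond 1.5 kb, while the inputs rose 1.51 and 1.71 times. Reads of the plus strand had a median position 83 and 71 bp before the centre and those of the minus strand 77 and 76 bp after it. On the log2 scale, reads per intergenic peak differed from reads per other common peak by 0.0025 and -0.017 in the Sox6 libraries, and by -0.077 and -0.076 in the inputs. The Sox6 libraries ranked the intergenic peaks alike only in part: over the 245 peaks Spearman's rho between their RPM values was 0.54, a description across peaks that share the 2 libraries and were called in both. Replicate 2 had the higher RPM at 183 of them.

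**Figure D1:**
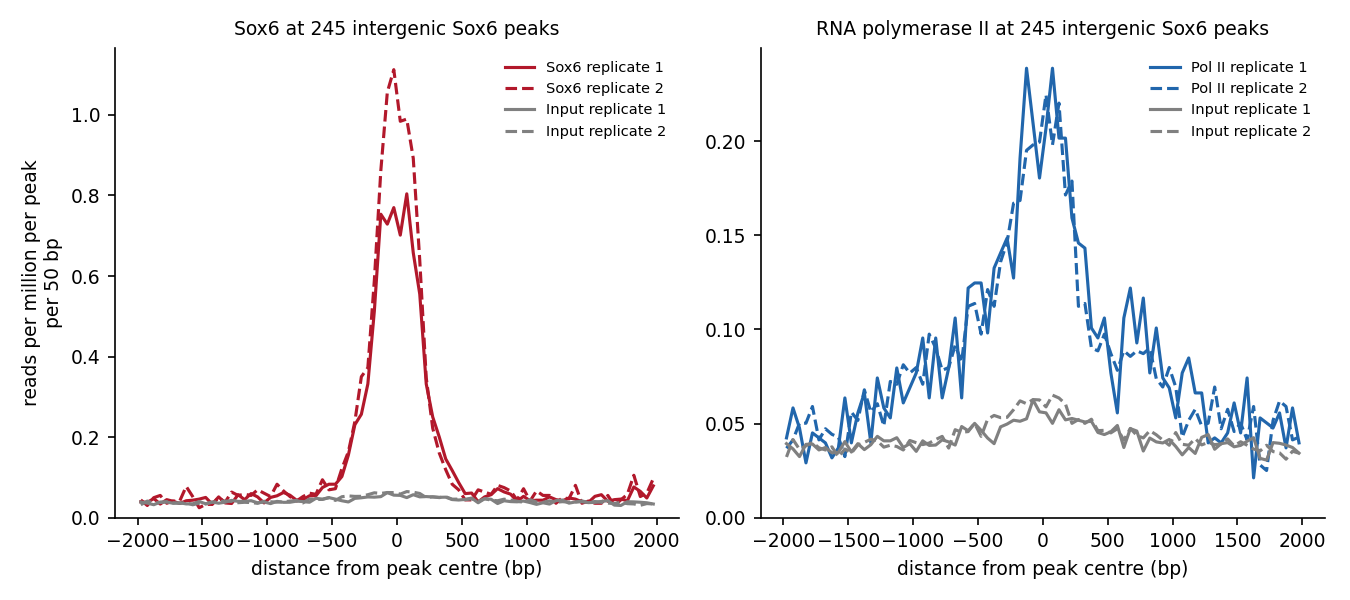
RPM per peak in bins of 50 bp against the distance from the peak centre in bp, averaged over the 245 intergenic peaks, for Sox6 (left, red) and Pol II (right, blue) with the inputs in grey. Solid lines are replicate 1 and dashed lines replicate 2. Both Sox6 libraries rise to a sharp summit (0.804 and 1.11 RPM in the highest bin), and both Pol II libraries to a lower one (0.239 and 0.225 RPM) with broader shoulders.

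Among peaks with at least 10 input reads, the largest log2 ratio of Sox6 to input, 6.14 ± 0.44 (SE), was at the peak 69.9 kb downstream of Atoh1, which encodes a basic helix-loop-helix factor of neurons and hair cells. It held 71 and 40 reads of Sox6, 7 and 9 of input and 0 and 3 of Pol II. Both Sox6 libraries stood far above both inputs there, while Pol II did not differ detectably (log2 ratio 0.81 ± 0.94, adjusted p = 0.472). Without Pol II replicate 1, which held no read there, it was called higher (1.79, adjusted p = 0.0331). In this and every other fit without a library, 1 library stands alone in its group and is assumed to vary like those of the other group, so such a call is weak evidence of a difference.

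The peak 265 kb upstream of Cxcr4, the receptor for the chemokine Cxcl12 that guides migrating muscle precursors, came next, at 5.86 ± 0.46. It had 34 and 32 Sox6 reads against 3 and 11 input reads, and 3 and 14 Pol II reads. Pol II was higher than input (log2 ratio 3.65 ± 0.65, adjusted p = 9.93e-08), and a Pol II peak of replicate 2 covered the centre whereas the nearest of replicate 1 lay 440 kb away. A second intergenic peak, 241 kb from Cxcr4, had a Sox6 ratio of 4.01 and a Pol II ratio of 1.30 that did not pass the test (adjusted p = 0.235).

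The other 8 of the 10 largest had log2 ratios of 4.81 to 5.33. They were nearest to Anapc10, Ankfn1, Ywhaz, Cyp26b1, Nt5e, Rspo3, Wac and Tshz3. Cyp26b1, which degrades retinoic acid, lay 36.8 kb from a peak with 59 and 47 Sox6 reads and 13 and 18 input reads. This peak held 7 and 7 Pol II reads, but the nearest Pol II peaks of replicates 1 and 2 lay 291100 and 291200 bp away. Rspo3, a secreted protein that strengthens Wnt signalling, lay 105 kb from a Sox6 peak with 53 and 20 Sox6 reads and 8 and 12 input reads. The Anapc10 peak lay 123 kb from its neighbour on the other side, Hhip, an inhibitor of hedgehog signalling, and had no Pol II read in either library. Of these 10 peaks, Pol II was higher than input at 5, near the share over all intergenic peaks (45.7%) and over all common peaks tested (58.4%). Those near Cxcr4, Ywhaz and Cyp26b1 were called under each of 14 other settings, which include other windows, other additions to the counts and each library left out. The Nt5e call was lost under 7 of them, among them those without input replicate 1, input replicate 2 or Pol II replicate 1 (adjusted p = 0.158, 0.231 and 0.0707) and relative to flanking sequence (0.319). The Tshz3 call was lost under 5, among them those without either input (0.104 and 0.156) and relative to the flanks (0.107). One peak with fewer input reads, 78.4 kb from Ctnna2, had a still larger Sox6 ratio (6.35 ± 1.22), but 1 input held 0 reads there.

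Pol II reads had no part in how the peaks were chosen, although the inputs they were set against did. Over the 245 intergenic peaks together, the Pol II libraries held 680 and 1182 reads in the central windows, or 1.80 and 1.75 RPM per peak, against 0.491 and 0.551 RPM in the inputs. In equally wide windows at 2 kb on both sides the means were 0.383 and 0.397 RPM for Pol II and 0.326 and 0.327 RPM for input. The centre therefore exceeded the flanks 4.71 and 4.40 times in the Pol II libraries and 1.51 and 1.69 times in the inputs. Both Pol II libraries stood above both inputs, although an exact two-sided permutation test over 2 against 2 libraries cannot give less than p = 0.333, the value found.

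The Pol II signal was broader than that of Sox6. Between 500 and 1000 bp from the centre, Pol II was still 1.94 and 1.90 times its mean beyond 1.5 kb, while Sox6 was 1.18 and 1.21 times its own. Reads of the plus strand had a median position 53 and 33 bp before the centre, and reads of the minus strand 49 and 39.5 bp after it.

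Single peaks held few Pol II reads, with a median of 2 in replicate 1 and 3 in replicate 2, and 13 peaks had none in either. With limma fitted across all common peaks, Pol II was higher than input at 112 of the 245 intergenic peaks (45.7%), beside 58.4% of all common peaks tested, and lower at 0 (at an unadjusted p under 0.05, 119 were higher and 0 lower). The median log2 ratio was 1.39, with quartiles of 0.70 and 2.28. At 139 of the intergenic peaks, and at 110 of the 112 called, both Pol II libraries had a higher RPM than both inputs. Windows with few reads carry an upward bias in this ratio, since 0.5 reads were added to each count and the Pol II libraries are shallow. With a window of 200 bp, 2 intergenic peaks were called higher without any Pol II read and 11 with at most 2, so a call at that width does not by itself show Pol II. At 450 bp every called intergenic peak held at least 4 Pol II reads. The flanks of the intergenic peaks had a median of 0.32, and 59 of the 490 windows were called higher. Relative to the median of all flanks, 67 intergenic peaks were higher (27.3%), beside 35.8% of all common peaks. The number also rested on having both inputs: without input replicate 1 it was 44 and without input replicate 2 it was 50. A group of 40 peaks was called higher under each of the 14 other settings applied to single peaks. The same count was not made for the other common peaks.

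Compared with peaks in and near genes, the intergenic peaks had less Pol II. The median log2 ratio was 2.02 for peaks inside a gene and 1.73 for those within 20 kb, where 390 of 581 (67.1%) and 121 of 208 (58.2%) were called higher. Reads per intergenic peak divided by reads per other peak came to 0.551 and 0.531 in the Pol II libraries and to 0.948 and 0.949 in the inputs. The difference between Pol II and input on the log2 scale was -0.81, with both Pol II libraries below both inputs (exact permutation test, two-sided, p = 0.333, the smallest that 2 against 2 libraries allow). When peaks within 1 kb of a Pol II peak of either replicate were left out of both sets, an alternative chosen after seeing the data that removes the windows richest in Pol II by construction, the ratios were 0.885 and 0.854 against 0.988 and 0.907, a difference of -0.12. The flanks differed more than the centres. At 2 kb, Pol II reached 1.22 and 1.21 RPM beside peaks inside a gene but 0.383 and 0.397 RPM beside intergenic ones, so that the rise from flank to centre was 2.54 and 2.51 times inside genes and 4.71 and 4.40 times at the intergenic peaks.

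**Figure D2:**
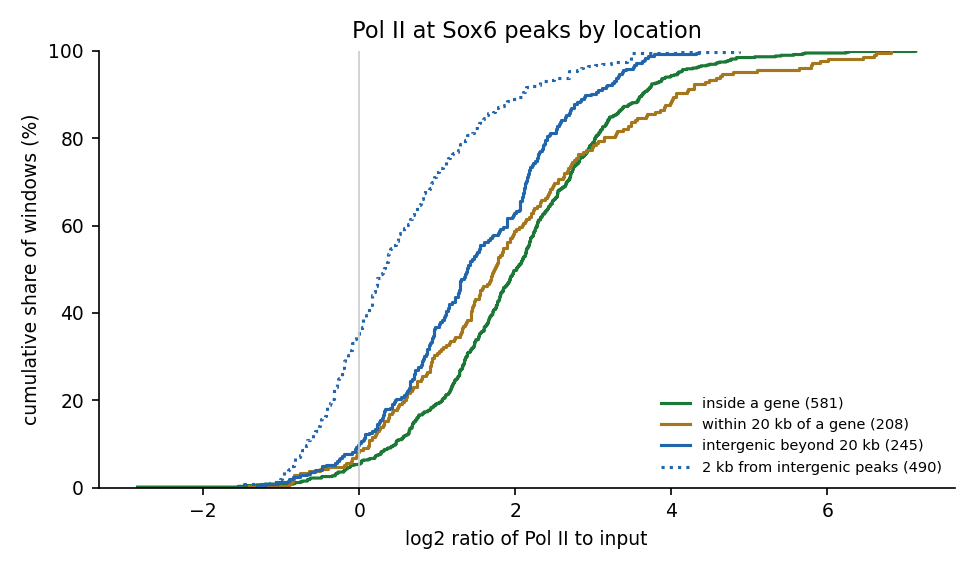
Cumulative share of windows in percent against the Pol II log2 ratio over input, for 581 peaks inside a gene (green), 208 within 20 kb (brown), 245 intergenic peaks (solid blue) and the 490 windows 2 kb from the intergenic peaks (dotted). The curve of the intergenic peaks lies left of those of the other peaks through most of its range (medians of 1.39, 2.02 and 1.73) and right of that of its own flanks (0.32).

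The authors' own Pol II peaks, called on the same reads, gave a similar order. A Pol II peak of both replicates lay within 1 kb of the centre at 25 intergenic peaks (10.2%, exact 95% interval 6.71 to 14.7%), at 156 of the peaks inside a gene (26.9%, 23.3 to 30.7%) and at 51 of those within 20 kb (24.5%, 18.8 to 31.0%). Intervals of shares cover counting error only. All 25 were among the 112 intergenic peaks called higher for Pol II. Both rest on the same Pol II and input reads, so neither is an independent check of the other.

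The 10 intergenic peaks with the largest Pol II ratios included those nearest to Gm5567, Zfp238, Gjd2, Arid1b, Cxcr4, Tmpo, Igsf3, Kif5b and Cnot6l, with log2 ratios of 3.51 to 4.32. All 10 remained called under each of the 14 settings. The Zfp238 peak, 105 kb downstream of a zinc finger repressor expressed in brain and differentiating muscle, had 8 and 15 Pol II reads against 6 and 13 input reads (3.78 ± 0.51, adjusted p = 3.06e-12). The Arid1b peak lay 497 kb upstream of this gene for a subunit of the BAF chromatin remodelling complex and had 10 and 11 Pol II reads against 6 and 14 input reads (3.66 ± 0.51, adjusted p = 1.42e-11). Pol II peaks of both replicates covered the centres near Arid1b, Igsf3 and Cnot6l, while near Gm5567 replicate 1 had one within 1 kb and replicate 2 did not.

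Sox6 abundance did not fall with distance from genes, whereas the median Pol II ratio was lower farther away. The median Sox6 log2 ratio was 3.53 at 20 to 50 kb, 3.71 at 50 to 100 kb, 3.57 at 100 to 250 kb and 3.68 beyond. The Pol II medians over the same ranges were 1.90, 1.65, 1.25 and 1.14, and Pol II was called higher at 46 of 85, 24 of 43, 21 of 64 and 21 of 53 peaks. A Pol II peak of both replicates was within 1 kb at 15, 5, 3 and 2 of them. Summed over peaks, the Pol II libraries had 2.24 and 2.20 RPM per peak at 20 to 50 kb, 1.77 and 1.57 RPM at 50 to 100 kb, 1.33 and 1.52 RPM at 100 to 250 kb and 1.70 and 1.44 RPM beyond, so that replicate 1 was not lowest in the farthest class. Across the 245 peaks, which share the libraries, Spearman's rho with distance was 0.10 for the Sox6 ratio and -0.16 for the Pol II ratio, both weak.

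**Figure D3:**
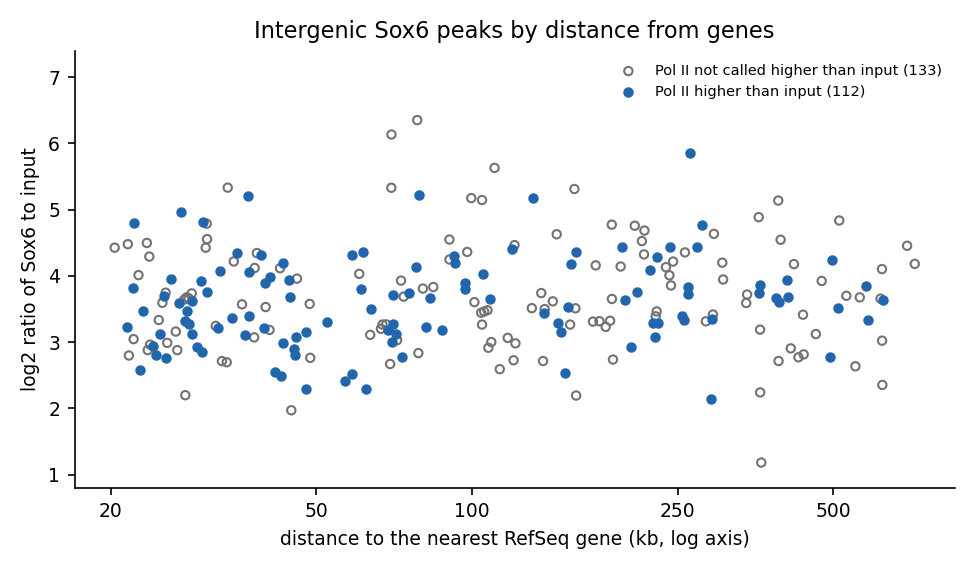
Log2 ratio of Sox6 to input against the distance to the nearest RefSeq gene in kb on a log axis, with 1 point for each of the 245 intergenic peaks. Filled points are the 112 peaks at which Pol II was higher than input and open points the other 133. Median Sox6 ratios are similar in all distance classes, from 3.53 at 20 to 50 kb to 3.71 at 50 to 100 kb. Filled points make up 46 of the 85 peaks up to 50 kb and 21 of the 53 beyond 250 kb.

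The 5 farthest peaks were 622 to 720 kb from a RefSeq gene, and 4 of them, nearest to Igsf11, Tbl1xr1, 5730508B09Rik and Nmbr, are described. Annotated genes of any kind lay nearer to these 4, at 292, 331, 21.4 and 408 kb. The Igsf11 peak, with 19 and 6 Sox6 reads and 5 and 8 input reads, lay 720 kb from Igsf11 and 1786 kb from Lsamp, a pair of immunoglobulin superfamily adhesion genes. Its Sox6 log2 ratio was 4.18 ± 0.57, and it held 1 Pol II read in each library. Pol II did not pass the test at the Igsf11, Tbl1xr1, 5730508B09Rik and Nmbr peaks (adjusted p = 0.235, 0.101, 0.125 and 0.119), which do not stand for all 5. With a window of 200 bp it was called at the Tbl1xr1 peak (0.0385, on 1 and 1 Pol II reads) and the 5730508B09Rik peak (0.0189, on 4 and 2 Pol II reads), and with 1 Pol II library left out at the Tbl1xr1 and Nmbr peaks (0.0449 and 0.0277, without replicate 1) and the 5730508B09Rik peak (0.0216, without replicate 2).

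At the other end of the rule, the 3 peaks just beyond 20 kb were 20.4 kb from Mamld1, 21.5 kb from Slc6a6 and 21.6 kb from D830050J10Rik, with Sox6 log2 ratios of 4.43, 3.24 and 4.48. The 3 just within it were 19.9 kb from Wisp2, 19.8 kb from Col1a2 and 19.7 kb from Tbca, with ratios of 5.33, 3.02 and 4.20.

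The nearest gene of a peak is given as a landmark, and whether the peak acts on it was not tested. The 245 peaks had 204 nearest genes, 185 of them protein coding, and 33 genes were nearest to more than 1 peak. Tbl1xr1, which encodes a subunit of corepressor complexes, was nearest to 4. Genes were sorted into lists by role. Of 67 myogenic regulators, 9 were nearest to an intergenic peak, with 13 peaks in all (5.31% of the intergenic peaks, 2.24% of those inside a gene and 1.92% of those within 20 kb). Of 69 sarcomere genes none was nearest to an intergenic peak, whereas 14 peaks inside a gene (2.41%) and 13 within 20 kb (6.25%) belonged to this list. The 18 Sox genes found in the annotation had 0 intergenic peaks, 2 inside (0.344%) and 1 within 20 kb (0.481%). These Sox counts are too small to tell the classes apart. For no list was it counted how much sequence of each class its genes cover or border. Differences between the classes in these shares therefore have no base to be set against.

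The 13 peaks near myogenic regulators had a median Sox6 log2 ratio of 3.60 and a median Pol II ratio of 1.39, close to those of all 245 (3.62 and 1.39), and Pol II was higher at 7 of the 13, beside 45.7% of the 245. At 1 of the 7, the farther Runx1 peak, the call held under all 14 other settings. Among them, Tbx15, Runx1 and Mef2c had 2 peaks each, and 1 peak each lay near Vgll2, Klf5, Ppargc1a, Hdac9 and Hdac4. Tbx15, a T-box factor needed for the normal makeup of glycolytic fibres, had a peak 159 kb downstream with 27 and 28 Sox6 reads and 9 and 23 input reads, and 4 and 8 Pol II reads (2.21 ± 0.53, adjusted p = 1.07e-04). That call was lost with a window of 200 bp (adjusted p = 0.143) and without input replicate 1 (0.0662). Its other peak, 25.7 kb downstream, had 2 and 1 Pol II reads and did not pass (0.23 ± 0.69, adjusted p = 0.80).

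Mef2c, an activator of muscle structural genes, showed the same split between neighbouring sites. Its peak 392 kb upstream had 22 and 11 reads of Sox6, 6 and 12 of Pol II and 11 and 18 of input, and Pol II was higher there (2.79 ± 0.49, adjusted p = 8.62e-08), with a Pol II peak of replicate 2 at 120 bp and one of replicate 1 at 1160 bp. With a window of 200 bp this call was lost (1.67, adjusted p = 0.0752). The peak 36.1 kb farther out, at 428 kb, had 10 and 8 reads of Sox6, 3 and 1 of Pol II and 9 and 24 of input (0.75 ± 0.70, adjusted p = 0.359). Whether the peaks of a pair differ from each other was not tested.

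Both peaks upstream of Runx1, which encodes a DNA-binding factor induced in denervated muscle, had Pol II above input, that at 78.1 kb less firmly. That at 138 kb held 5 and 11 reads of Pol II beside 9 and 16 of input (2.83 ± 0.52, adjusted p = 3.56e-07), and that at 78.1 kb held 5 and 3 reads of Pol II beside 5 and 16 of input (2.37 ± 0.66, adjusted p = 9.06e-04). The second call was lost under 7 of the 14 other settings, with adjusted p-values from 0.0541, relative to the flanks, to 0.224, without input replicate 1. Without Pol II replicate 1 and without input replicate 2 they were 0.139 and 0.0803.

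Vgll2, a muscle cofactor of Tead proteins, had a peak 60.9 kb upstream with 24 and 13 Sox6 reads, at which Pol II was just past the threshold (1.39 ± 0.63, adjusted p = 0.0485). This call was lost under 11 of the 14 other settings, among them that with the replicate number as a block (adjusted p = 0.0693) and those without each of the 4 libraries in turn (0.0576 to 0.287). The peak 176 kb upstream of Ppargc1a, a coactivator of mitochondrial and slow fibre genes, had 14 and 9 Sox6 reads and 12 and 13 input reads but 0 and 1 Pol II reads (-0.42 ± 0.94, adjusted p = 0.721). Pol II did not pass the test near Klf5, nor near Hdac4 and Hdac9, class IIa deacetylases that restrain Mef2 (adjusted p = 0.0722, 0.166 and 0.579). The Klf5 peak was called under 4 other settings, with windows of 200 and 1000 bp (0.0409, on 1 and 2 Pol II reads, and 0.0125), with repeated positions counted once (0.0436) and without Pol II replicate 2 (0.0320). The Hdac4 peak was called under 2, with 200 bp (0.0333, on 2 and 1 Pol II reads) and without Pol II replicate 2 (0.0333).

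**Figure D4:**
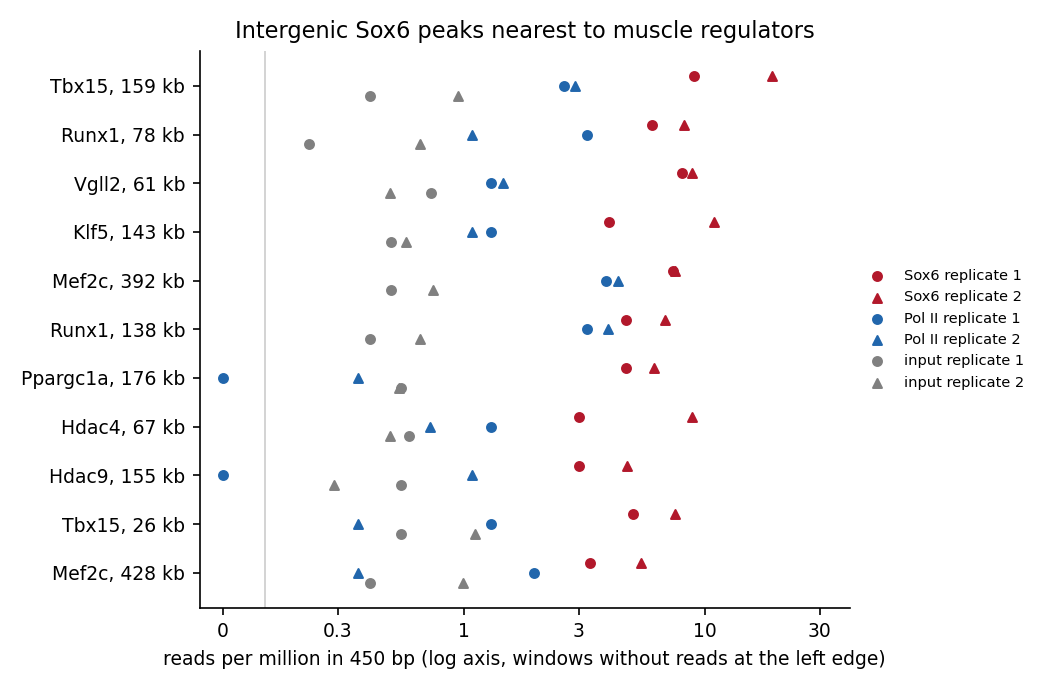
RPM in the 450 bp around the centre, on a log axis, in each of the 6 libraries for 11 intergenic peaks nearest to myogenic regulators, labelled with the gene and its distance in kb. Circles are replicate 1 and triangles replicate 2 of Sox6 (red), Pol II (blue) and input (grey), and windows without reads stand at the left edge. Sox6 lies to the right of input at all 11, while Pol II lies below both inputs near Ppargc1a and overlaps them near Hdac9, at the nearer Tbx15 peak and at the farther Mef2c peak.

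Genes of signalling were nearest to 9 intergenic peaks (3.67%), beside 1 of the 581 peaks inside a gene (0.172%) and 0 of the 208 within 20 kb. They were Cxcr4 (2 peaks), Rspo3, the Tgf-beta ligand Tgfb2, the fibroblast growth factors Fgf3 and Fgf9, the Wnt inhibitor Dkk2, the neurotrophin Ntf3 and the insulin-like growth factor binding protein Igfbp3. The list was written with earlier results of these data known. How much of the sequence beyond 20 kb, or inside genes, belongs to its genes was not counted. Whether gene length or the gene-free intervals around them account for these shares was not tested. Pol II was higher at 3 of the 9, beside 45.7% of the 245: one of the Cxcr4 peaks, that of Fgf9 (2.28, adjusted p = 4.59e-04) and, less firmly, that of Igfbp3 (1.60 ± 0.69, adjusted p = 0.0358). The Igfbp3 peak, 195 kb upstream, had 35 and 14 reads of Sox6, 1 and 6 of Pol II and 11 and 11 of input, and its Pol II call was lost under 11 of the 14 other settings. These were the windows of 200, 1000 and 2000 bp, both other additions to the counts, both scalings to flanks, the replicate number as a block (adjusted p = 0.0523), and the fits without Pol II replicate 2 (0.109) and without either input (0.258 and 0.286). The Fgf9 call was lost under 4, with windows of 1000 and 2000 bp and without either input.

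Genes of adhesion and guidance were nearest to 9 intergenic peaks as well (3.67%), beside 8 inside a gene (1.38%) and 2 within 20 kb (0.96%). Pol II was higher at 4 of the 9 intergenic peaks, beside 45.7% of the 245. Lrrn1, a leucine-rich repeat membrane protein, had 3 of them. The one 35.1 kb upstream held 55 and 25 reads of Sox6, 5 and 11 of Pol II and 19 and 21 of input (Pol II 2.12 ± 0.47, adjusted p = 2.56e-05), and the one at 70.3 kb held 20 and 16 reads of Sox6, 4 and 8 of Pol II and 15 and 15 of input (2.16 ± 0.53, adjusted p = 1.37e-04). Both calls held under all 14 other settings, which was true of no other call in this list. At the third, 138 kb away, Pol II did not pass (0.93, adjusted p = 0.142). The peak near the neuronal gene Ctnna2 held no Pol II read in either library and was still called with a window of 200 bp (2.32, adjusted p = 0.0330), on 0 Pol II and 0 and 2 input reads. Among developmental transcription factors, the 5 peaks near Atoh1, Tshz3, Nr5a2, Dlx2 and Meis2 had Sox6 log2 ratios of 3.59 to 6.14, the Atoh1 and Tshz3 peaks being among the 10 largest, and Pol II was higher at 1, beside 45.7% of the 245. This was the Tshz3 peak, whose call was lost under 5 of the settings, as given above.

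Pol II was next measured over the bodies of the genes beside the peaks. Of the 204 nearest genes, 197 had at least 10 reads over the 4 libraries and were tested. Pol II was higher than input over 89 of them (45.2%), beside 38.9% of all genes tested, and lower over 58 (29.4%). The share of all genes that were lower is not given, so the 58 cannot be set against it. The median log2 ratio of the 197 genes was 0.09, against 0.17 over all genes. When the nearest gene on each side of a peak was taken, 139 of 366 (38.0%) were higher, which is close to the share over all genes.

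Of the 115 peaks whose nearest gene was higher, Pol II was called at 61 (53.0%), and of the other 130 at 51 (39.2%). Genes with much Pol II beside a peak named above included Lrrn1 (3.22), Runx1 (2.93), Mef2c (2.87) and Zfp238 (3.26). Peaks with large Pol II ratios also lay near genes over which Pol II was not called higher. Over Cxcr4 (-0.48, on 1 and 5 Pol II reads) and Gjd2 (-1.31, on 0 and 5) it did not differ detectably from input (adjusted p = 0.456 and 0.19). Over Gm5567 it was lower than input (-1.45).

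The intergenic peaks were rich in the motifs seen at peaks in genes. A Sox match was found in 54.7% of the deposited intervals (134 of 245, exact 95% interval 48.2 to 61.0%), against 23.3% of equally wide flanks at 2 kb. An E-box was found in 58.4% (51.9 to 64.6%) against 15.1% of the flanks, a Runx match in 62.4% against 38.4% and a Tead/MCAT element in 22.4% against 8.78%. The Mef2 consensus was rare, in 3.27% (8 peaks) against 0.204%. The intervals of peaks and flanks did not overlap for any of the 5 motifs. The shares at intergenic peaks lay close to those at peaks inside a gene, which were 52.5% for Sox, 57.5% for the E-box, 60.4% for Runx, 25.1% for Tead/MCAT and 2.07% for Mef2, all within the intervals of the intergenic shares.

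Of the E-box words, CAGCTG occurred in 115 intergenic peaks and CAGGTG in 47, and of the Sox words, ACAATG in 85 and ACAAAG in 69. Sox and E-box matches occurred together in 84 peaks, a Sox match without an E-box in 50 and an E-box without a Sox match in 59. Of the 4 motifs, 18 peaks held none, 62 held 1, 85 held 2, 67 held 3 and 13 held all. Within 40 bp of the centre there were 44.5 Sox, 47.3 E-box, 62.0 Runx and 13.5 Tead/MCAT matches per 100 peaks, while the same length of sequence more than 420 bp away held 13.1, 8.37, 24.5 and 5.51. The base composition within 100 bp of the centre was similar in both classes, with a median GC content of 47.5% at intergenic peaks and 48.0% inside genes, and 15.5% of the windows of each class held no CpG. A match is a description of the letters and does not show which protein bound.

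**Figure D5:**
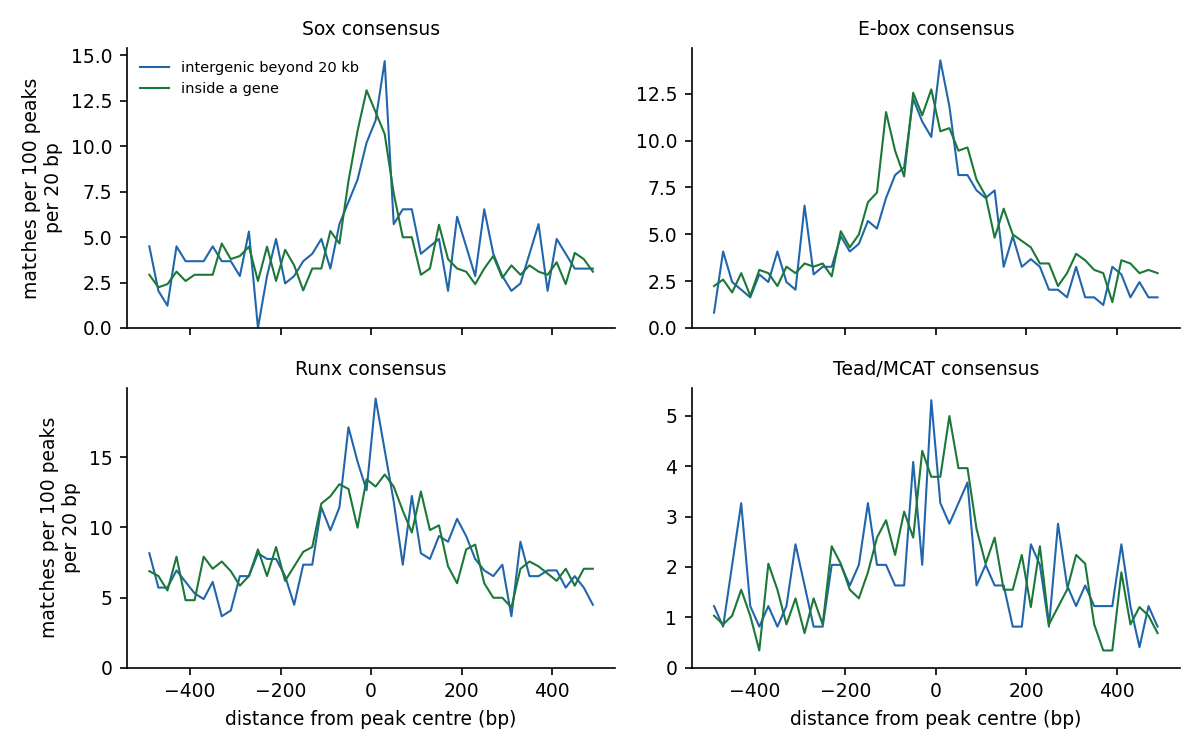
Matches per 100 peaks in bins of 20 bp against the distance from the peak centre in bp, for the Sox, E-box, Runx and Tead/MCAT consensus, at the 245 intergenic peaks (blue) and the 581 peaks inside a gene (green). All 4 motifs rise towards the centre in both classes, and the curves of the classes overlap.

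Most intergenic peaks stood alone. With neighbours counted within 50 kb, 207 were single, 16 pairs were found and there were 2 runs of 3.

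One of these runs, 359 to 363 kb downstream of Pgk2 on chromosome 17, stood apart in its inputs. An annotated pseudogene, AY036118, was much nearer, at 4.21, 2.35 and 0.217 kb from the 3 peaks. These peaks had 25 and 53, 12 and 32, and 25 and 127 input reads, the last with the most of any intergenic peak. Input replicate 2 exceeded replicate 1 in each. Sox6 log2 ratios were 1.18, 2.24 and 3.74, the first of them the lowest of all 245. Pol II was called higher at the last (2.40 ± 0.37, adjusted p = 1.30e-09), a call that was lost without either Pol II library and without input replicate 1. Without this run 111 intergenic peaks were higher for Pol II and the median Sox6 ratio was 3.62.

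The 25 repeat-like windows beyond 20 kb differed from the 245 peaks. They held 243 to 62146 input reads, with a median of 1368, whereas the 245 held 5 to 152, with a median of 23. Their Sox6 log2 ratios ran from -0.13 to 1.19 around a median of 0.47. Input replicate 2 had a median of 2.69 times the RPM of input replicate 1 in these windows, against 1.12 times for the summed reads of the 245 peaks. Whether the shorter reads of input replicate 1 bear on this was not tested. A group of 15 lay on chromosome 9 with 4930433N12Rik as the nearest gene, 4 on chromosome 2 with Lrrc4c and 6 elsewhere. The 120 bp around the centre are given for the 3 with the most input reads, chr2:98506871-98506990, chr2:98502651-98502770 and chr9:35112901-35113020, on the plus strand of mm9 and with the same use of capitals, since their sequence shows how unlike the peaks they are.
Lrrc4c first window: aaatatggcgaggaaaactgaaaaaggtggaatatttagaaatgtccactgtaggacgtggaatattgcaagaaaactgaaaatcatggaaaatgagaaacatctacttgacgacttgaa
Lrrc4c second window: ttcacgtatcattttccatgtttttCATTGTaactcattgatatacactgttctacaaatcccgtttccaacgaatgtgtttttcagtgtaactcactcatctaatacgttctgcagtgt
Rpusd4 window: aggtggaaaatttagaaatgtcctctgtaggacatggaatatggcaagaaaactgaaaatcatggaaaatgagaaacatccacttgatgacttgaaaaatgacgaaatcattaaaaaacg

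The 3 windows held 7271 and 2813, 4094 and 1583, and 2664 and 1034 Sox6 reads, but also 9004 and 53142, 5957 and 39704, and 6944 and 20662 input reads. In each, both Sox6 libraries lay above input replicate 1 in RPM, while against input replicate 2 only replicate 1 of the first window and of the third lay above it.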

How the data were processed

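Sox6, Pol II and input DNA of primary mouse fetal myotubes were sequenced single-end on an Illumina Genome Analyzer II after 18 cycles of PCR, with 2 libraries per group, grouped by their labels. The authors aligned reads with Bowtie 0.12.5 (per the submitters' processing notes) to mm9, kept uniquely placed reads and called peaks with SISSRs against input at a fragment length of 450 bp. The deposited files hold positions of reads and of peaks, with no counts column, no normalization and no usable score, so other values were computed here. GENCODE vM1 genes whose name is that of a RefSeq gene with a transcript (23274) were used with their longest model. The annotation and sequence are of the same build: no read lay past a chromosome end, and a control primer of the study lay where it is stated to lie.

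Reads were counted by their 5' end within 225 bp of each peak centre and over gene bodies, and scaled to mapped reads. Log2 values, with 0.5 reads added to each count, were fitted with limma 3.58.1 (R 4.3.3, with a trend) across all 1066 common peaks or all genes with at least 10 reads, with Benjamini-Hochberg adjustment at 0.05. The fits were tested on simulated data. No count model was run. Other steps used pysam 0.24.0, scipy 1.17.1, numpy 2.4.6, matplotlib 3.10.9 and pandas 2.3.3 in Python 3.11.15. Motifs were matched as letters on both strands, with exact 95% binomial intervals that cover counting error only, as reads without molecular identifiers are not independent molecules.

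Peaks were named by a rule: the 10 largest Sox6 ratios with at least 10 input reads, the 10 largest called Pol II ratios, the 5 farthest from genes, runs of 3 or more within 50 kb, every peak nearest to a myogenic, sarcomere or Sox gene, the 5 largest Sox6 ratios of each other list, and the 3 peaks on either side of 20 kb. Fgf9, Fgf3, Dkk2, Ntf3, the third Lrrn1 peak and the peaks inside other annotated genes were named after their values were seen. The peaks, lists and tests were chosen with earlier results of these data known. Alternatives were other windows, additions to the counts, scalings, distance and input limits, repeated positions counted once, the replicate number as a block, and each library left out. Results at some loci are not reported here.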

Additional observations from a re-analysis of the deposited data

How the results depend on the processing

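The number of intergenic peaks was 245, and 160 and 117 with limits of 50 and 100 kb. The median Sox6 log2 ratio of 3.62 became 3.92, 2.95 and 2.24 with windows of 200, 1000 and 2000 bp, 2.15 with 1 RPM and 3.35 with 0.1 RPM added in place of 0.5 reads, and ran from 3.39 to 3.84 with each library left out. The median Pol II log2 ratio of 1.39 became 1.75, 1.14 and 0.78 with those windows, 0.48 and 0.92 with 1 and 0.1 RPM, 0.54 relative to all flanks and 1.07 relative to the intergenic flanks (a setting chosen after seeing the data), and ran from 1.35 to 1.71 with each library left out. The number of intergenic peaks with more Pol II, 112, was 73 with 1 RPM and 67 relative to all flanks, and ran from 44 to 122 with each library left out, lowest without an input. It stayed within 1.5 times of 112 under the other alternatives run, and none of them turned a called direction. Pol II was lower than input at 2 intergenic peaks with 0.1 RPM and at 1 without Pol II replicate 1, beside 0, and at 9 with the repeat-like windows kept in. The nearest genes with more Pol II ran from 77 to 94 with each library left out and rose from 89 to 139 when a gene on each side was taken, out of more genes. Within 100 bp of the centre the E-box share was 69.4% and the Runx share 70.2%. A Pol II peak of replicate 1 alone lay within 1 kb of 41 intergenic peaks and one of replicate 2 alone of 47, against 25 for both. The cause of these changes was not tested.

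With the replicate number as a block, the Sox6 median was 3.62, the Pol II median 1.39, 108 intergenic peaks had more Pol II and 88 nearest genes did. Among the peaks named, the block ended the Pol II calls of the Vgll2 and Igfbp3 peaks (adjusted p = 0.0693 and 0.0523). The study's methods give each ChIP experiment an input of its own for peak calling, but no source used here says that equal numbers mark one experiment, and deviations of same-numbered libraries correlated at 0.03 (Sox6 and input), -0.02 (Pol II and input, peaks) and -0.06 (genes). Depth limits single peaks: a median of 2 and 3 Pol II reads cannot show modest differences, and a p that missed the threshold does not show equality.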

Other observations

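An E-box and a Runx match that overlap in the 9 letters CAGCTGTGG, noticed in the printed sequences and counted afterwards on both strands, occurred in 10 of the 245 intergenic peaks (4.08%, exact 95% interval 1.97 to 7.38%) and in 1 of 490 windows 2 kb away (0.204%, 0.00517 to 1.13%). At peaks inside a gene it occurred in 19 of 581 (3.27%) and in 6 of 1162 flanks (0.516%), and at peaks within 20 kb in 5 of 208 (2.40%) and 0 of 416 flanks, which allows a share of up to 0.721% by the limit of 3 counts and of up to 0.883% by the exact interval. The 9 letters hold both motifs, which are themselves more frequent at the peaks, so the counts do not separate the overlap from its parts.

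A further 30 intergenic peaks, beside the 10 with the largest Pol II ratios, were called higher for Pol II under every setting. Among them, chosen after their values were seen, was a peak 32.6 kb downstream of Dysf, which encodes the membrane repair protein dysferlin, with 8 and 13 reads of Pol II beside 10 and 12 of input (log2 ratio 3.39 ± 0.50, adjusted p = 1.20e-10). Another lay 153 kb from Tnfaip3, which encodes an inhibitor of NF-kappaB signalling, with 7 and 20 reads of Pol II beside 12 and 14 of input (3.37 ± 0.47, adjusted p = 9.43e-12). Of the 40 intergenic peaks called under every setting, 22 had a Pol II peak of both replicates within 1 kb. How many of the other common peaks were called under every setting was not counted.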
